A study of Homo sapiens with 8 samples.

Results

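Chromosome 13 is an acrocentric chromosome, whose short arm holds ribosomal RNA gene clusters and whose long arm carries its protein-coding genes. These genes serve unrelated tasks, from DNA repair (*BRCA2*) and transcription (*POLR1D*, *ELF1*) to the cytoskeleton (*WASF3*, *LCP1*) and membrane transport (*ABCC4*, *ATP8A2*), so that position is what they share. A median over such genes describes the level of a whole chromosome's mRNA beside that of the other chromosomes.

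The 206 genes described here are the protein-coding genes of chromosome 13 with a mean of at least 1 CPM, a count scaled to library size, over the 8 libraries, of 12200 autosomal protein-coding genes at the same minimum. Estimated counts per transcript were summed over each gene and scaled by TMM to give CPM. Of 311 chromosome 13 protein-coding genes in the tables, 100 lay under the minimum, and 5 others were left out by the selection rule (*SPRY2*, *KLF5*, *RB1*, *COL4A1* and *COL4A2*). The chromosome was chosen by measured values, because its genes were lower in the libraries labelled *CIC* KO than in WT. That comparison is therefore given below as a description, with no test.

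The libraries came from PNT2 cells, which are immortalized prostate epithelial cells of human origin, with 2 libraries (replicates A and B) in each of 4 groups: WT, *ERF* KD, *CIC* KO and *CIC-ERF* codeletion. *ERF* and *CIC* encode transcriptional repressors. All lines came from the same parental cells and grew in DMEM with FBS. *ERF* was silenced with hairpin RNAs under puromycin selection. *CIC* was cut with Cas9 guides under blasticidin selection, and the codeletion lines combined a hairpin with a guide. Both codeletion lines carried the hairpin shERFA1. Which guide, or for the single-loss lines which hairpin or guide, each replicate carried was not stated, and nothing says that the replicates were separate cultures, so that p-values measure only the spread between these libraries.

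Library totals ran from 19477473 to 25813157 estimated counts. *ERF* mRNA was 55.9 ± 0.0566 CPM in WT (SD, n = 2) and 79.5 ± 2.43 where the label reads *ERF* KD. The libraries labelled *CIC* KO had 15.3 ± 4.98 CPM and the codeletion 11.0 ± 0.894 CPM. *CIC* mRNA was 129.0 ± 0.756, 109.0 ± 0.303, 132.0 ± 0.434 and 78.6 ± 17.4 CPM in the same order, although a Cas9 cut need not lower mRNA. *ERF* mRNA thus went against the labels of the single-loss libraries, and the word labelled is kept before both names. All 6 epithelial markers (such as *KRT8* and *EPCAM*) were above 1 CPM in every group. Their summed level was 1645 to 2107 CPM in labelled *ERF* KD and between 3793 and 5208 CPM in the other groups. The summed level of the mesenchymal markers *VIM*, *ZEB1* and *CDH2* was 1716 to 2197 CPM in labelled *ERF* KD and 79.0 to 300.0 CPM elsewhere. Of 5 fibroblast markers 2 or 3 in a group averaged at least 1 CPM, with sums of 22.7 to 104 CPM over all libraries. *COL1A1* reached 65.5 CPM and *PDGFRB* 36.4 CPM in labelled *ERF* KD A, while *LUM* was at 0 in all 8. The 3 endothelial markers summed to 4.22 to 67.0 CPM, most of it *CDH5* (65.4 CPM in codeletion A), and *VWF* stayed under 1 CPM. The 2 leukocyte markers summed to 6.48 to 52.4 CPM, nearly all *CD68*, with *PTPRC* at 0.625 to 1.09 CPM. The part of these markers in the results below was not tested. In bulk RNA, fewer cells of a type and less RNA per cell cannot be told apart.

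Members spanned a wide range of level. Mean TPM, which is adjusted for transcript length and can be compared between genes, ran from 0.554 to 2653, with a median of 21.7. The highest was *TPT1*, the translationally controlled tumor protein (2653 TPM). It was followed by *HMGB1*, a chromatin architectural protein (1092 TPM), *ANKRD10* (341 TPM), the lysosomal membrane protein gene *LAMP1* (258 TPM), and *TFDP1*, which encodes the dimerization partner of E2F factors (249 TPM). In the windows of the chromosome not led by one of these, the highest were the paraspeckle gene *PSPC1* (69.7 TPM), the deubiquitinase gene *UCHL3* (122 TPM) and *STK24*, a Ste20-like kinase gene (190 TPM). Just inside the minimum were *POSTN* and *SMIM2* (1.08 CPM each) and *SOHLH2* (1.13 CPM). Just outside it were *NEK3* (0.92 CPM), *PROZ* (0.858 CPM) and *KCNRG* (0.849 CPM). *POSTN*, *LCP1* and *GJB2* fell under 1 CPM when their highest group was left out. All 206 members passed the filter on low counts that preceded the tests.

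In the libraries labelled *CIC* KO, the comparison that selected the chromosome, the median member was 0.17 lower than in WT on the log2 scale (median log2 fold change -0.17), while the median over all autosomal genes was 0.02. The difference, called the shift here, was -0.19, which is a ratio of 0.879 on the linear scale. The quartiles of the members were -0.29 and -0.02, and those of all autosomal genes -0.12 and 0.15. Both interquartile ranges were 0.27 wide, so that between the quartiles the members were displaced without a wider spread. The lower tail reached further: the 5th percentile was -0.78 for members and -0.462 for autosomal genes. At the 95th percentile the values were 0.238 and 0.42. Of the 206 members, 163 (79.1%) had a fold change below 0, compared with 46.1% of autosomal genes. On the other 21 autosomes this share reached at most 65.8% (chromosome 4), and the shift ran from -0.11 (chromosome 4) to 0.11 (chromosome 14).

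Counts of separate libraries gave the same picture of this selected comparison. In 80 members (38.8%) both libraries labelled *CIC* KO lay below both WT libraries, against a background of 15.6% of autosomal genes. In 11 members (5.34%) both lay above, against 16.6%. The share below was between 5.22% (chromosome 21) and 27.3% (chromosome 10) on the other autosomes. These shares were fixed in part by the choice of the chromosome and carry no test.

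**Figure D1:**
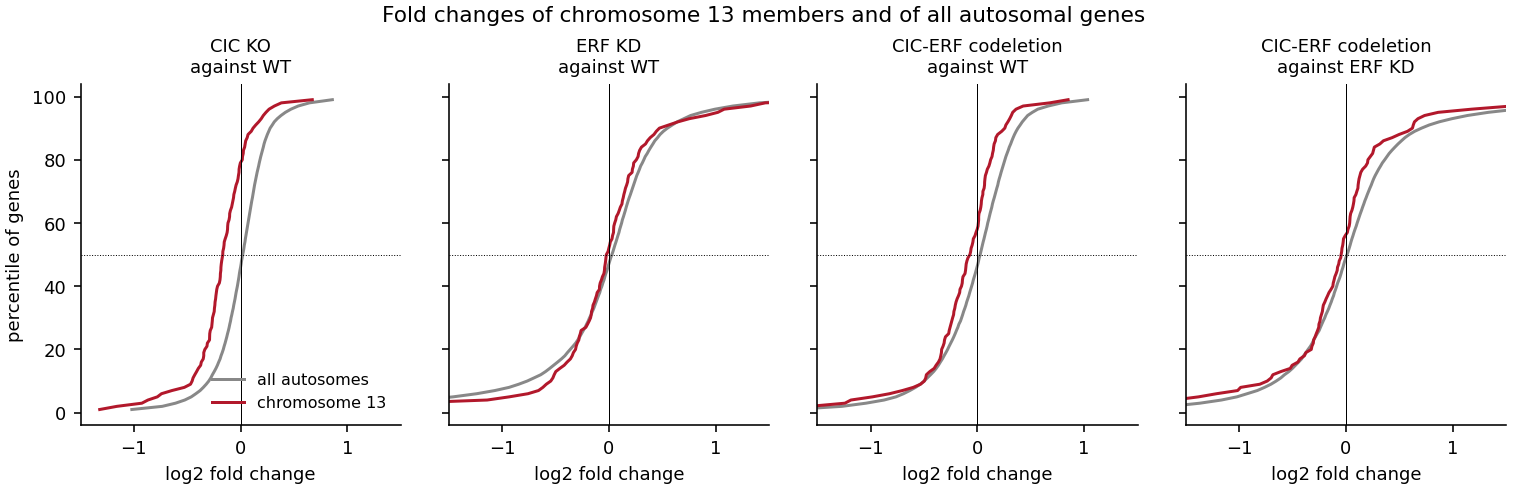
Cumulative distribution of log2 fold changes (horizontal axis) for the 206 chromosome 13 members (red) and all 12200 autosomal protein-coding genes (grey), by percentile of genes, in 4 comparisons. In labelled CIC KO against WT, which chose the chromosome, the red line lies left of the grey one by about the same amount over most percentiles, and the medians are -0.17 and 0.02.

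By library, the shift was taken as the median log2 ratio of the members to the mean of the WT libraries, less the same median over all autosomal genes. It was -0.16 in labelled *CIC* KO A and -0.16 in B, the lowest value of any autosome in each library. The WT libraries themselves differed. WT A stood at 0.06 and WT B at -0.06, and this gap of 0.11 before rounding was wider than on any other autosome, where it ran from -0.08 (chromosome 19) to 0.04 (chromosome 10). Part of the distance from WT thus rested on WT A: the labelled *CIC* KO shift was -0.13 without WT A and -0.21 without WT B. Without WT A, the other autosomes ran from -0.09 to 0.08.

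In the other lines the members lay within the range of the other autosomes. The shift was -0.07 in labelled *ERF* KD A and -0.01 in B, where other autosomes reached -0.22 and -0.24 (chromosome 22) and 0.27 and 0.20 (chromosome 14). It was -0.05 in codeletion A and -0.12 in codeletion B, where chromosome 18 stood at -0.18 and -0.20 and chromosome 5 at 0.21 and 0.19. The gap of 0.08 between the codeletion libraries was again wider on chromosome 13 than on any other autosome.

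**Figure D2:**
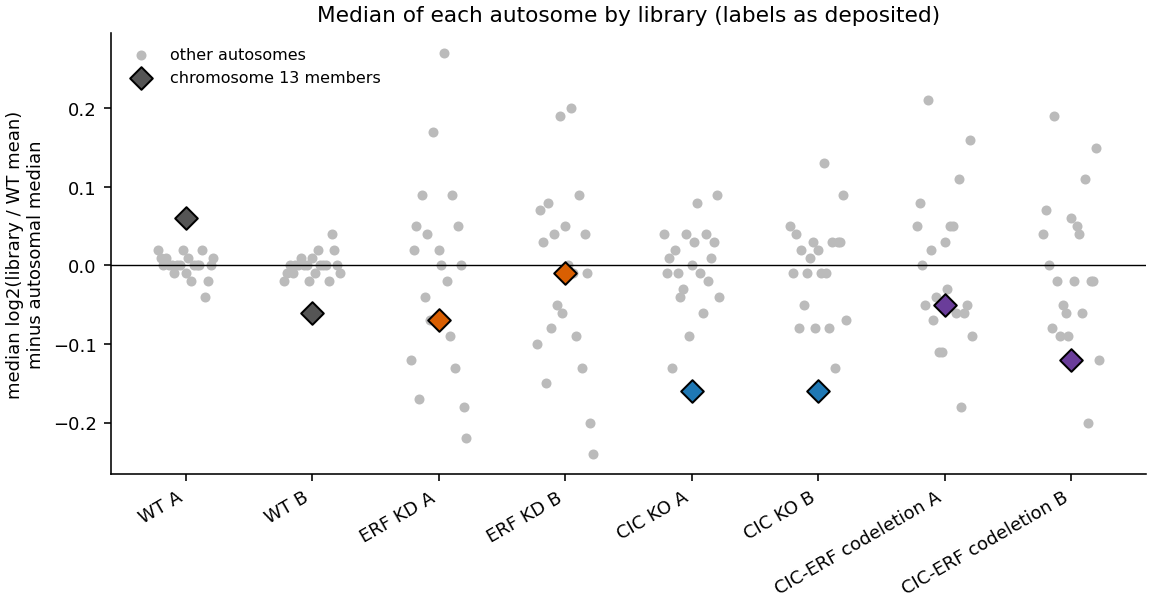
Median log2 ratio to the WT mean of the genes of each autosome, less the median over all autosomal genes, in each of the 8 libraries. Diamonds are the chromosome 13 members and grey points the other 21 autosomes, and the diamonds of both libraries labelled CIC KO stand at -0.16, below all grey points, while those of WT A and B stand apart at 0.06 and -0.06.

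The chromosome was divided into 6 windows of 20 Mb, which held 4, 68, 60, 19, 16 and 39 members from the centromere outward (GRCh38, from *MPHOSPH8*, which starts at 19633681, to *CHAMP1*, which starts at 114314335). In labelled *CIC* KO the shift was -0.18, -0.17, -0.19, -0.20, -0.18 and -0.21 in these windows. No window was near 0. Members with both libraries below WT made up 25.0% of the first window and 56.2% of the fifth, and 33.3% to 47.4% of the other four. A running median over 21 neighbouring members stayed below the autosomal median at all 186 positions, between -0.29 (centred on *TMTC4*) and -0.09 (centred on *ATP7B*, the copper transporter gene).

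**Figure D3:**
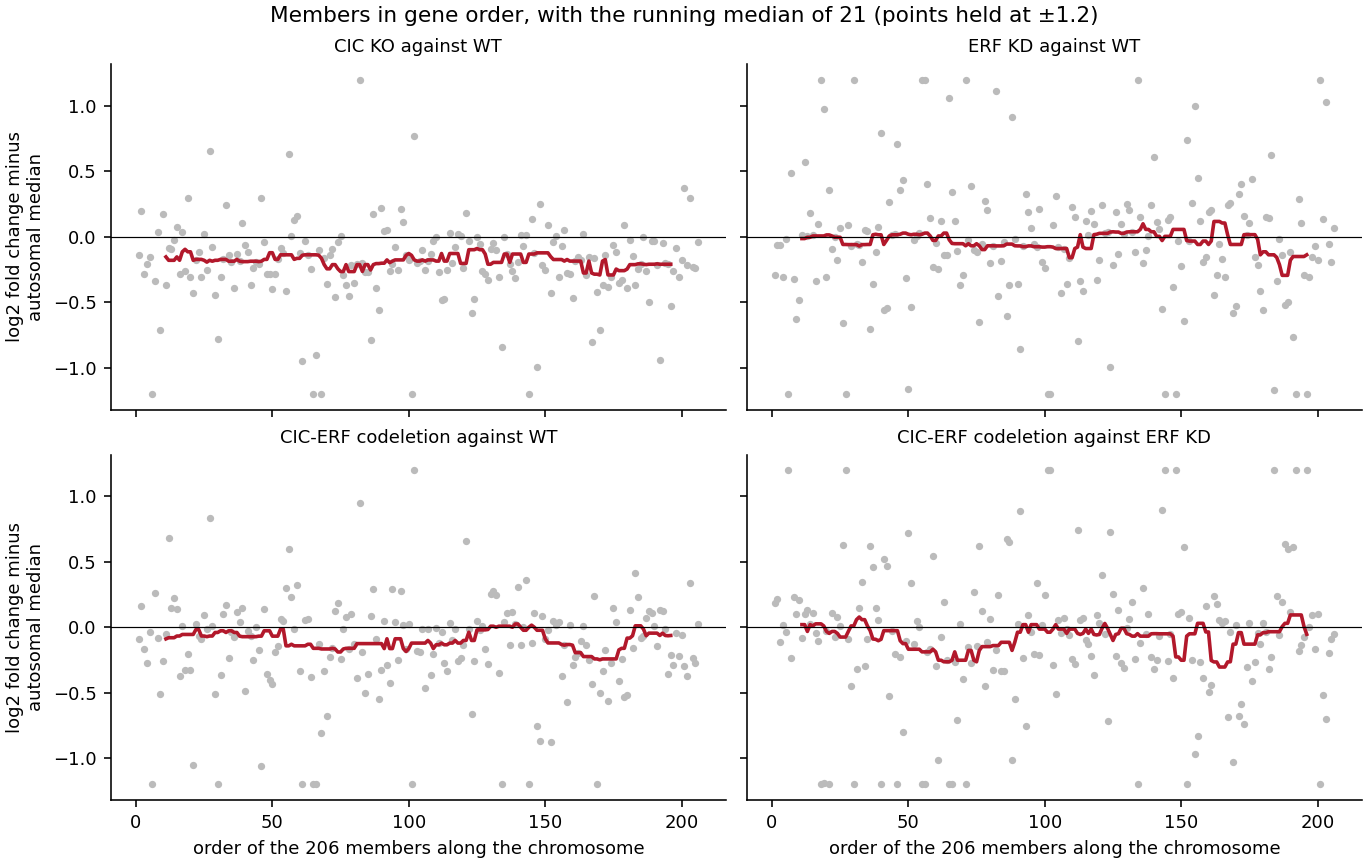
Log2 fold change of each member less the autosomal median (grey points) in order along the chromosome, with the running median of 21 members (red), in 4 comparisons. In labelled CIC KO against WT the red line stays between -0.29 and -0.09, and in each of the 3 other comparisons it crosses 0.

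The other comparisons were uneven along the chromosome. In labelled *ERF* KD against WT the running median went from -0.30 (centred on *ING1*) to 0.12 (centred on *FARP1*) and was below 0 at 109 of 186 positions. In the codeletion against WT it went from -0.25, again centred on *TMTC4*, to 0.02 and was below 0 at 168 positions. Against labelled *ERF* KD the codeletion reached -0.30 (centred on *DOCK9*) and 0.09. By window, this last comparison ranged from 0.10 in the first, which held 4 members, to -0.26 in the fifth, where 9 of 16 members had a fold change below 0 and 4 passed the test described below, against 6.05% of autosomal genes.

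**Figure D4:**
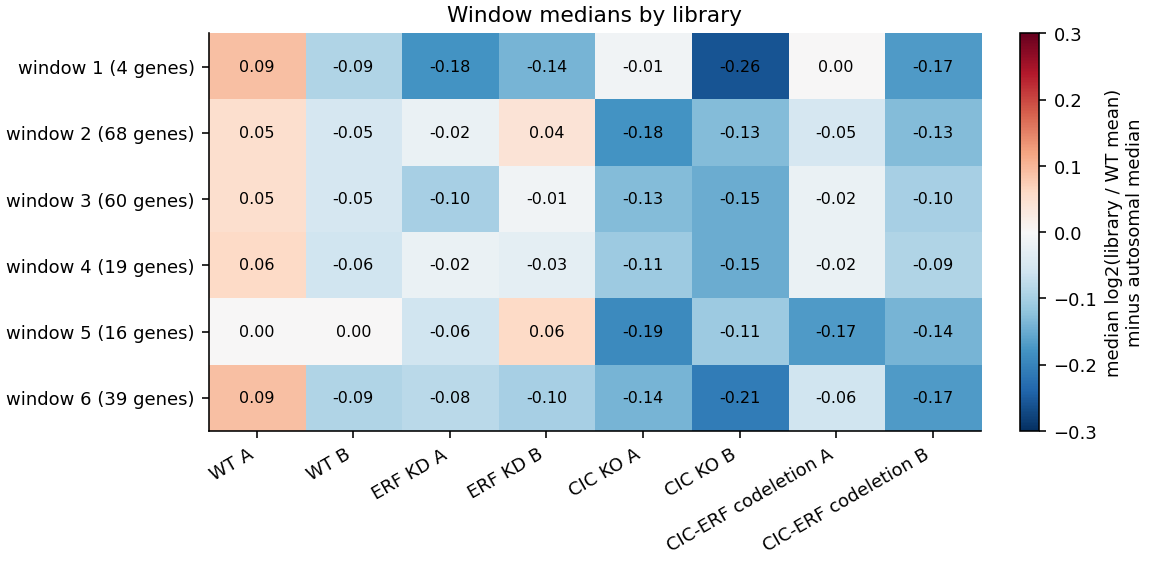
Median log2 ratio to the WT mean, less the autosomal median, for the members of each 20 Mb window (rows, window 1 nearest the centromere) in each library (columns). All 12 cells of labelled CIC KO are below 0, from -0.26 to -0.01, and the WT A column is at or above 0 in every window.

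Level, base composition and transcript length were examined, since members differed from other genes in these. The median GC content of their most abundant transcripts was 43.1% against 49.7% over all autosomal genes, and the median length 3142 against 2552 bases. When all autosomal genes were divided into 3 equal parts by level, the labelled *CIC* KO shift within a part was -0.26, -0.21 and -0.17 from the lowest to the highest. Divided by GC content it was -0.17, -0.18 and -0.25, the last over 12 members. Divided by length it was -0.21, -0.17 and -0.17. The shift was thus present at each level, GC content and length. What sets it was not tested.

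Each list of genes by role had a median below 0 in labelled *CIC* KO against WT. That comparison chose the chromosome, and 79.1% of all members were below 0 in it, with a median of -0.17. The counts by role are to be read against that share and carry no test. Of 20 members that serve division and repair, 19 were below 0, with a median of -0.16, the lowest being *CDK8*, the Mediator kinase (-0.43). Transcription, RNA and translation genes had a median of -0.17 (23 of 27 below 0), and those for protein folding, ubiquitin and traffic -0.17 (30 of 34). Metabolism and transport genes stood at -0.12 (15 of 21) and signalling, adhesion and cytoskeleton genes at -0.13 (20 of 27). All 7 transcription factors were below 0, with a median of -0.28, from *SMAD9* of the BMP pathway (-0.93) to *ZMYM2* (-0.19).

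The members furthest below WT among those at 5 CPM or more, with libraries that did not overlap, were *FREM2*, *TRPC4*, *EPSTI1*, *WASF3*, *TMTC4*, *IL17D*, *WDFY2* and *CCDC122*. *FREM2*, which encodes a basement membrane protein, was 8.69 and 5.15 CPM in WT A and B and 3.3 and 1.83 CPM in labelled *CIC* KO (log2 fold change -1.43). *TRPC4*, a cation channel gene, was 14.8 and 12.6 CPM in WT and 7.72 and 7.17 CPM in labelled *CIC* KO (-0.88). Its replicates lay close together in both groups. *EPSTI1* was 91.6 and 94.9 CPM in WT and 70.9 and 38.4 CPM in labelled *CIC* KO (-0.77), with a wide gap between A and B there. The other five ran from -0.76 (*WASF3*) to -0.54 (*CCDC122*).

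Above WT, by the same criteria, were *ATP8A2*, *RASA3*, *LACC1* and *TPT1*. *ATP8A2*, which encodes a phospholipid flippase, was 39.5 and 53.2 CPM in WT and 71.0 and 76.7 CPM in labelled *CIC* KO (0.67). *RASA3* (0.32), *LACC1* (0.24) and *TPT1* (0.23) moved less. *TPT1*, the most abundant member, thus went against the direction of the chromosome: it was 1018 and 1174 CPM in WT and 1190 and 1381 CPM in labelled *CIC* KO. Outside these criteria *MYCBP2*, a ubiquitin ligase gene singled out after its values were seen, was 82.1 and 49.9 CPM in WT and 15.5 and 51.9 CPM in labelled *CIC* KO, so that its fold change of -0.97 rested on 1 library.

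Several genes named by role lay near the median of the chromosome. *BRCA2*, for homologous recombination, was 63.3 and 57.8 CPM in WT and 53.2 and 47.3 CPM in labelled *CIC* KO (-0.27), without overlap. *CUL4A*, a cullin of ubiquitin ligases, was 212.0 and 204.0 CPM and 173.0 and 194.0 CPM (-0.18), also without overlap. *HMGB1* was 819.0 and 810.0 CPM and 711.0 and 737.0 CPM (-0.17). The nuclear import gene *IPO5* (-0.17), the ribosomal protein gene *RPL21* (-0.15) and the transcription factor genes *KLF12* (-0.30) and *FOXO1* (-0.44) were also below 0. The libraries of *RPL21* and *FOXO1* overlapped those of WT. *KLF12* and *FOXO1* were further from the median of the chromosome, below the members' lower quartile of -0.29. *FOXO1* was 15.4 and 12.6 CPM in WT and 13.1 and 7.46 CPM in labelled *CIC* KO. The Hippo kinase gene *LATS2* (-0.07), the chaperone gene *DNAJC3* (0.07) and *EFNB2*, an ephrin ligand gene (0.11), stood nearer to 0 or above it, and their libraries overlapped those of WT.

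The codeletion was next compared with labelled *ERF* KD, and neither group was in the comparison that chose the chromosome. The fit held all 8 libraries, however, so that the spread behind its p-values drew also on WT and labelled *CIC* KO. With edgeR's quasi-likelihood test and a Benjamini-Hochberg adjusted p under 0.05, 11 of 206 members (5.34%) were higher and 17 (8.25%) lower in the codeletion. The background over all autosomal genes was 6.81% higher and 6.05% lower. With the replicate letter as a block, 20 members were higher and 23 lower, while 12.1% and 10.8% of autosomal genes were called. The members' shift was -0.05 with a replicate SD of 0.0507, so that it was about as large as the spread between libraries. Other autosomes ran from -0.27 (chromosome 9) to 0.35 (chromosome 21).

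Among members lower in the codeletion, *WASF3*, which encodes the WAVE3 regulator of actin assembly, fell the furthest. It was 40.4 and 50.1 CPM in labelled *ERF* KD and 2.67 and 1.47 CPM in the codeletion (log2 fold change -4.43 ± 0.321, SE, adjusted p = 0.000135). In WT it was 5.37 and 7.39 CPM and in labelled *CIC* KO 3.95 and 3.56 CPM. Labelled *ERF* KD therefore stood above all other libraries, and the codeletion below them. *PCDH9*, a protocadherin gene, was 6.53 and 11.3 CPM in labelled *ERF* KD and 0.847 and 0.564 CPM in the codeletion (-3.64 ± 0.429, adjusted p = 0.00144), with 1.66 and 1.68 CPM in WT.

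*LHFPL6*, which encodes a tetraspan membrane protein, was 54.5 and 58.3 CPM in labelled *ERF* KD and 16.1 and 20.9 CPM in the codeletion (-1.61 ± 0.179, adjusted p = 0.00103). WT, at 23.5 and 19.1 CPM, overlapped the codeletion. *TMEM255B* (-1.74), *DCLK1*, a microtubule-associated kinase gene (-1.69), and *SLITRK6*, a neuronal adhesion gene (-1.62), also fell. Without labelled *ERF* KD B *DCLK1* was at -1.13 (edgeR, adjusted p = 0.257), and its call was also lost without either codeletion library. *SLITRK6* ran from -1.09 without codeletion A (adjusted p = 0.0713) to -2.42 without codeletion B, and *TMEM255B* was at -1.49 without codeletion A (adjusted p = 0.0584).

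*TRPC4* differed from these in its order of levels. It was 17.4 and 18.1 CPM in labelled *ERF* KD and 5.54 and 6.03 CPM in the codeletion (-1.62 ± 0.196, adjusted p = 0.00165). WT lay between them at 14.8 and 12.6 CPM, and all 4 groups were without overlap. A further 9 members called lower fell by 0.48 to 0.96 on the log2 scale. They were the drug efflux pump gene *ABCC4* (-0.96), *DZIP1* of ciliogenesis (-0.82), *B3GLCT* (-0.79), *TSC22D1* (-0.75), *WDFY2* (-0.70), *RASA3*, a Ras GTPase-activating protein gene (-0.69), the sodium leak channel gene *NALCN* (-0.67), *ESD* (-0.50) and the small GTPase gene *RAP2A* (-0.48). Each of these 9 calls was lost without codeletion B and under 3 to 7 of 9 alternatives.

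Among members higher in the codeletion, *ATP8A2* was 12.8 and 7.3 CPM in labelled *ERF* KD and 87.2 and 80.5 CPM in the codeletion (3.06 ± 0.267, adjusted p = 0.000311). WT (39.5 and 53.2 CPM) and labelled *CIC* KO (71.0 and 76.7 CPM) lay between. *GRTP1*, a TBC domain gene, was 2.16 and 3.33 CPM in labelled *ERF* KD and 9.78 and 9.25 CPM in the codeletion (1.79 ± 0.301, adjusted p = 0.00724). *RAB20*, a Rab GTPase gene, was 14.5 and 9.74 CPM and 36.3 and 27.7 CPM (1.40 ± 0.311, adjusted p = 0.024). The edgeR adjusted p of *RAB20* was 0.141 without codeletion A, 0.0531 without codeletion B and 0.113 without labelled *ERF* KD B.

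Smaller rises were found for *NUP58*, a nucleoporin gene (0.64), *ELF1*, which encodes an ETS family activator (0.63), and *NDFIP2*, an adaptor of NEDD4 ubiquitin ligases (0.62). *ELF1* was 74.3 and 63.4 CPM in labelled *ERF* KD and 112.0 and 101.0 CPM in the codeletion (adjusted p = 0.018). Without codeletion A its adjusted p in edgeR was 0.108, and without labelled *ERF* KD B 0.0997. *ARHGEF7*, a guanine nucleotide exchange factor gene (0.61), *SPART*, the spartin gene (0.55), and *POLR1D*, a subunit of RNA polymerases I and III (0.47), were also called. Each of these 6 calls was lost without codeletion A and under 4 to 7 of 9 alternatives. *SCEL* and *RUBCNL* completed the 11 and are described below with their near absence from labelled *ERF* KD.

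**Figure D5:**
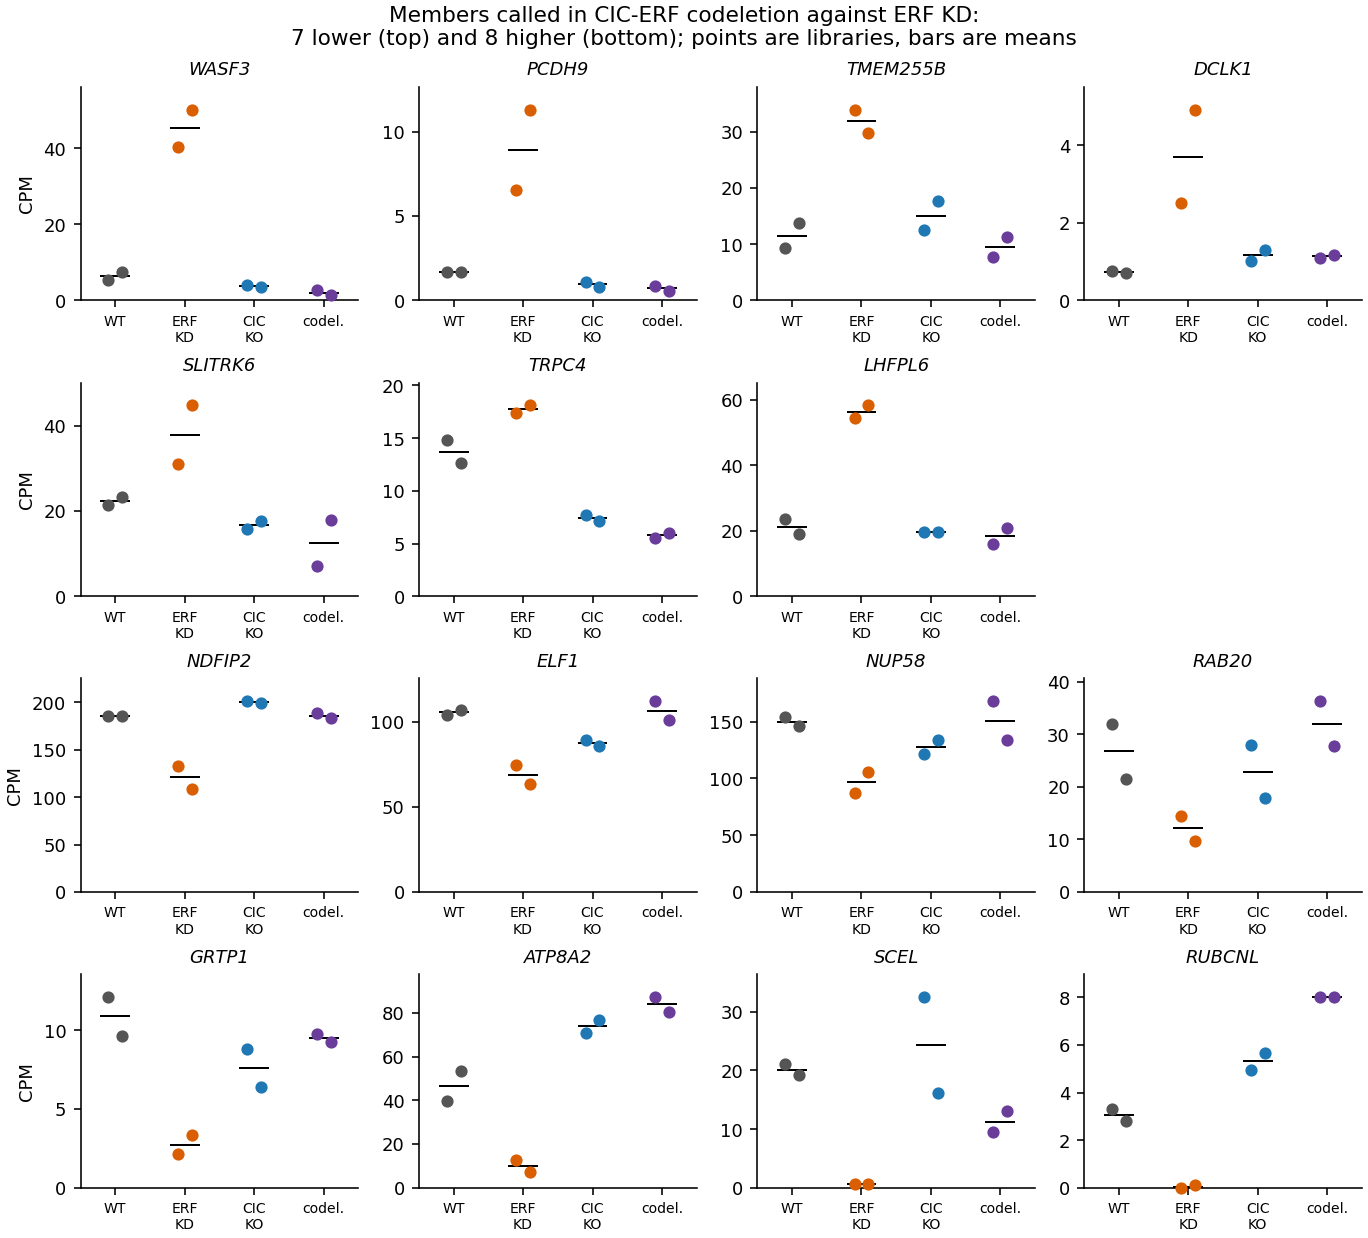
CPM of 15 members in each library (points) with group means (bars), from 0 on a linear axis: 7 with low and the 8 with the highest fold changes among those called in CIC-ERF codeletion against labelled ERF KD. Labelled ERF KD stands apart from the other groups in most panels, as for WASF3 (40.4 and 50.1 CPM) and SCEL (0.72 and 0.596 CPM).

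Labelled *ERF* KD was then compared with WT. This comparison shares WT with the one that chose the chromosome and labelled *ERF* KD with the previous one. Here 9 members (4.37%) were higher and 10 (4.85%) lower, against a background of 4.45% and 6.6%. With the replicate block 14 were higher and 22 lower (autosomal genes 9.40% and 10.8%). The shift was -0.05, within the replicate SD of 0.0634, and it was 0.02 without WT A and -0.10 as the median over 3 parts of GC content. The members' shares were thus near or under the background in both directions.

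Among the members higher than WT were *WASF3* (2.83), *PCDH9* (2.41), *DCLK1* (2.32), *TMEM255B* (1.47), *LHFPL6* (1.40), *RASA3* (1.06), *ABCC4* (1.03) and *TBC1D4*, a Rab GTPase-activating protein gene (0.64). *WASF3* was 5.37 and 7.39 CPM in WT and 40.4 and 50.1 CPM in labelled *ERF* KD (SE 0.291, adjusted p = 0.000758). *DCLK1* was low throughout, at 0.76 and 0.714 CPM in WT and 2.5 and 4.92 CPM in labelled *ERF* KD (SE 0.473, adjusted p = 0.0186). *RASA3* was 17.1 and 14.7 CPM in WT and 29.5 and 36.8 CPM in labelled *ERF* KD (SE 0.18, adjusted p = 0.00841). In each of the 9 the libraries of the compared groups did not overlap. The calls of *ABCC4* and *TBC1D4* were each lost under 5 of 9 alternatives, and that of *TMEM255B* under 2. With 1 library left out, *ABCC4* was at 0.89 to 1.16 and *TBC1D4* at 0.58 to 0.70. With 1 WT library left out, the fold of *DCLK1* was 2.36 and 2.28 and that of *PCDH9* 2.40 and 2.42, but neither was called by edgeR (adjusted p = 0.119 and 0.12, and 0.0638 and 0.0591, without WT A and WT B). *DCLK1* was at 1.75 without labelled *ERF* KD B (adjusted p = 0.108), *RASA3* at 0.95 without WT B (adjusted p = 0.0786), and *TMEM255B* at 1.21 without WT A (adjusted p = 0.102).

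The members lower than WT included genes that were nearly absent from labelled *ERF* KD. *LCP1*, the gene of the actin-bundling protein L-plastin, had 67 counts in each WT library and 0 in both labelled *ERF* KD libraries, at least 45.0-fold lower when set against the floor of 3 counts over the group. *LCP1* is a member only through WT, where it is highest, so that its direction here was fixed by the minimum, and it is described without a p although it is counted among the 10. *RUBCNL*, an autophagy gene, had 70 and 55 counts in WT and 0 and 2 in labelled *ERF* KD, a 62.9-fold ratio with a 95% exact counting interval of 17.1 to 525 (adjusted p = 0.000967). Intervals of this kind cover counting error only.

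*RUBCNL* rose to 8.0 and 8.01 CPM in the codeletion, 164-fold labelled *ERF* KD with a counting interval of 45.0 to 1359 (adjusted p = 0.000278). *SCEL*, which encodes sciellin of the cornified envelope of stratified epithelia, was 21.1 and 19.2 CPM in WT and 0.72 and 0.596 CPM in labelled *ERF* KD (log2 fold change -4.92 ± 0.422, adjusted p = 0.000314). In the codeletion it was 9.44 and 13.1 CPM, higher than in labelled *ERF* KD (4.08 ± 0.418, adjusted p = 0.00074). *KCTD12*, an auxiliary subunit of GABA-B receptors, was 15.0 and 8.41 CPM in WT and 1.01 and 1.34 CPM in labelled *ERF* KD (-3.31 ± 0.668, adjusted p = 0.018). That call was lost without WT A (adjusted p = 0.0912), labelled *ERF* KD A (0.089) or labelled *ERF* KD B (0.0714) in edgeR.

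The others called lower than WT were *ATP8A2* (-2.20), *GRTP1* (-1.98), *LNX2*, a ubiquitin ligase gene (-0.68), *NUP58* (-0.63), *ELF1* (-0.62) and *NDFIP2* (-0.62). The calls of *LNX2*, *NUP58*, *ELF1* and *NDFIP2* were lost without WT A and without WT B. *GJB2*, which encodes connexin 26 of epithelial gap junctions, was 2.33 and 4.59 CPM in WT and 0.0 and 0.596 CPM in labelled *ERF* KD, and it did not pass the test (adjusted p = 0.0637), though it did with the replicate block (adjusted p = 0.0138). Like *LCP1*, it is a member only through WT, so that this p supports nothing about its direction. *IRS2*, an adaptor of the insulin receptor, was 90.4 and 130.0 CPM in WT and 179.0 and 168.0 CPM in labelled *ERF* KD (0.65 ± 0.191, adjusted p = 0.0704), without overlap, and passed with the replicate block (adjusted p = 0.0314). *POSTN*, for the matrix protein periostin, was 1.85 and 0.357 CPM in WT and 2.93 and 1.79 CPM in labelled *ERF* KD (adjusted p = 0.475). It is a member only through labelled *ERF* KD, where it is highest, so that this p too supports nothing about its direction. The lower epithelial and higher mesenchymal marker sums of labelled *ERF* KD, given above, moved together with these calls, and their part in them was not tested.

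*ERF* mRNA was higher in labelled *ERF* KD than in WT (79.5 and 55.9 CPM), so that the ranking used here does not follow a loss of *ERF* mRNA. The promoter windows of the 4 genes of these lists furthest from WT in labelled *ERF* KD that had an entry are shown, since ERF binds the ETS core GGAA. They run from 250 bases before to 50 after the start given by RefSeq (GRCh38.p14), 5′ to 3′ on the gene's strand, and capitals mark GGAA and its reverse complement TTCC. *LCP1* is at chr13:46182128-46182427 (minus strand), *RUBCNL* at chr13:46387203-46387502 (minus, the first of 2 entries), *SCEL* at chr13:77535456-77535755 (plus) and *GJB2* at chr13:20192889-20193188 (minus).
LCP1: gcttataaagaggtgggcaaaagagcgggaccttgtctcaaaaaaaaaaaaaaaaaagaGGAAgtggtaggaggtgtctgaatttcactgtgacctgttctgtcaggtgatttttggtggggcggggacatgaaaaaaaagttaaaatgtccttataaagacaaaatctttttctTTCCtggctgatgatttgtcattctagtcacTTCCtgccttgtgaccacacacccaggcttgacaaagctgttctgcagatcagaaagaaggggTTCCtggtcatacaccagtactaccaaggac
RUBCNL: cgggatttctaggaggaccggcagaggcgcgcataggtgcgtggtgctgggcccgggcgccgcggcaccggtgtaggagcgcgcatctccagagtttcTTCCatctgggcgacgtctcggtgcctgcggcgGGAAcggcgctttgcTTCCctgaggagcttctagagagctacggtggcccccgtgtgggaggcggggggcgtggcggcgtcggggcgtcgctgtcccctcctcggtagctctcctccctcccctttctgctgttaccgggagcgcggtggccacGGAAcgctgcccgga
SCEL: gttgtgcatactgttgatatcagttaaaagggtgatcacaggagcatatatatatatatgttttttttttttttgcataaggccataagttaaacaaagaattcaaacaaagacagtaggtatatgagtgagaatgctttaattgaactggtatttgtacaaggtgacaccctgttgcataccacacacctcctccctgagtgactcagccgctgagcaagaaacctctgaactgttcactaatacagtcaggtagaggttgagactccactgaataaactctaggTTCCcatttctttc
GJB2: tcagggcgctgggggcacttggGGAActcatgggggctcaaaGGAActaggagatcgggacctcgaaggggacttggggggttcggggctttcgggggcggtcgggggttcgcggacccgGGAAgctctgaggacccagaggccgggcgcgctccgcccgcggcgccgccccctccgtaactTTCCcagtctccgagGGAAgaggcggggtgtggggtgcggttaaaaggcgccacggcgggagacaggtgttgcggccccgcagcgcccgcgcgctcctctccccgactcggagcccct
The windows hold 4, 4, 1 and 5 such cores, and their GC contents are 42.7%, 70.0%, 38.3% and 71.7%. On either strand, 95.5% of the 35116 promoter windows of RefSeq hold GGAA, as do 172 of the 181 members with an entry, so that its presence does not set these genes apart.

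Longer motifs were rarer. The CIC octamers TGAATGAA, TGAATGGA, TCAATGAA and TCAATGGA were searched on both strands and are held by 1.65%, 1.03%, 0.718% and 0.51% of all windows. Among members, *ARGLU1* and *SMIM2* held the first, *LMO7* held the second, and none held the third or the fourth. None of these 3 genes was called by edgeR in the 3 tested comparisons. In labelled *ERF* KD against WT *ARGLU1* was at -0.53 (adjusted p = 0.25), *SMIM2* at -0.83 (adjusted p = 0.49) and *LMO7* at -0.52 (adjusted p = 0.289). In the codeletion against labelled *ERF* KD *LMO7* was at 0.91 (adjusted p = 0.0716), without overlap of libraries, and it passed with the replicate block (adjusted p = 0.0361). The ETS octamer CCGGAAGT, which contains GGAA, was held by 4.14% of all windows and by 18 of the 181 members (9.94%), *BRCA2*, *HMGB1* and *CUL4A* among them. All windows were not limited to protein-coding genes at the members' minimum level. These shares are therefore not over like sets, and whether chromosome 13 differs in this was not tested. Of these 18, 1 (*NUP58*) was called in labelled *ERF* KD against WT and 2 (*NUP58* and *ARHGEF7*) in the codeletion against labelled *ERF* KD, where 11.0% and 12.9% of autosomal genes were called. Each of these calls was lost under 5 of 9 alternatives. The window of *NUP58* is shown (chosen after the search), at chr13:25301375-25301674 on the plus strand, with the octamer's reverse complement in capitals.
NUP58: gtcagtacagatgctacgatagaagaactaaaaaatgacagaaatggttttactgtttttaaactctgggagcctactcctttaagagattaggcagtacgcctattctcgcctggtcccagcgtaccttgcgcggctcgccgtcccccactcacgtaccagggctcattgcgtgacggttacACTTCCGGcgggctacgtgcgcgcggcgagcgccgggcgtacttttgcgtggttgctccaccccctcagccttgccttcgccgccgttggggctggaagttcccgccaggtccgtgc
*NUP58* was 154.0 and 146.0 CPM in WT, 87.6 and 106.0 CPM in labelled *ERF* KD, and 168.0 and 134.0 CPM in the codeletion. A match describes letters only and is no evidence of binding.

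The codeletion was last compared with WT, which again shares the WT libraries. No member was called higher or lower, against a background of 0.0082% and 0.0738% of autosomal genes. At an unadjusted p under 0.05 edgeR gave 5 members higher (2.43%, autosomal 6.94%) and 19 lower (9.22%, autosomal 6.99%). DESeq2 called 3 higher and 4 lower, and the replicate block in edgeR 1 higher and 3 lower. The shift was -0.10 with a replicate SD of 0.0679, and 4 of the other autosomes lay further from 0. It was -0.05 without WT A or without codeletion B and -0.16 without WT B. *TRPC4*, at 14.8 and 12.6 CPM in WT and 5.54 and 6.03 CPM in the codeletion (-1.24 ± 0.195), and *WASF3* (-1.60 ± 0.308) came nearest to a call, with adjusted p-values of 0.0699 and 0.0962. With the replicate block both passed (adjusted p = 0.022 and 0.0399). *LATS2* was 85.6 and 74.4 CPM in WT and 153.0 and 109.0 CPM in the codeletion (0.71 ± 0.193, adjusted p = 0.194, and 0.0276 with the replicate block).

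By role, the numbers called were small, and the autosomal shares to read them against are 4.45% higher and 6.6% lower in labelled *ERF* KD against WT, and 6.81% and 6.05% in the codeletion against labelled *ERF* KD. None of the 20 division and repair genes was called in any of the 3 tested comparisons, and their medians lay between -0.01 and 0.04. Of 27 transcription, RNA and translation genes, 1 was called higher in the codeletion against labelled *ERF* KD. Of 27 signalling, adhesion and cytoskeleton genes, 3 were higher and 1 lower in labelled *ERF* KD against WT. The 1 lower was *LCP1*, whose direction was fixed by the 1 CPM minimum, so that it supports nothing about this list. In the codeletion against labelled *ERF* KD, 1 of the 27 was higher and 4 lower, and their median was -0.22, beside 0.01 for all autosomal genes. The transcription factor list had the same median of -0.22 there, and metabolism and transport genes -0.13. The protein folding, ubiquitin and traffic list (34 genes) had 2 lower in labelled *ERF* KD, and 2 higher and 1 lower in the codeletion against it. Metabolism and transport (21 genes) had 1 higher and 1 lower, and then 1 higher and 2 lower. Of 7 transcription factors 1 (*ELF1*) was lower in labelled *ERF* KD, and in the codeletion against it *ELF1* was higher and *TSC22D1* lower.

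Several of these genes share exonic bases with another gene, and since stranded counting was not stated, their reads may be divided with the partner. *WASF3*, *IL17D*, *PCDH9*, *SCEL*, *GRTP1*, *NDFIP2* and *EFNB2* overlap antisense transcripts. *ELF1* overlaps *WBP4*, *STK24* overlaps *FARP1*, *CUL4A* overlaps *PCID2*, and *CCDC122* overlaps *LACC1*. *WDFY2* shares 3328 bases with the protein-coding gene *AL162377.3*. *RUBCNL* contains the pseudogene *PPP1R2P4*, and *TPT1* shares bases with small nucleolar and antisense RNAs. Their values are uncertain to that extent.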

How the data were processed

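RNA-seq was made from 8 libraries of PNT2 cells, 2 in each of 4 groups taken from the sample labels. The authors deposited estimated counts per transcript, not normalized, and TPM, which is scaled to the same total per library. The columns are those of kallisto, whose version is not given in the sources used here, and the methods name RSEM 1.3.3 for gene-level values. Per the labels the build was hg19. Positions here are GRCh38, from GENCODE release 29 by transcript ID.

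Of 180253 transcripts, 153245 (85.0%) matched, with 93.2% to 93.3% of counts, and counts were summed over 33791 genes and rounded. Depth was 19477473 to 25813157 counts. With library sizes taken after the filter on low counts and scaled by TMM, 3 counts is at most 0.169 CPM. edgeR 4.0.16 (R 4.3.3; TMM, filterByExpr, glmQLFit and glmQLFTest over all 4 groups) tested 14653 genes, with p-values adjusted over all of them by the Benjamini-Hochberg method. The method was tested on simulated data. DESeq2 1.42.0, limma 3.58.1 on log2(TPM + 1), a replicate block, no filter, only the groups compared, and leaving out each library were the alternatives. Deviations of libraries with the same letter correlated between groups, with r from 0.126 to 0.334 over 6 pairs of groups and n = 14653 genes, so that the letters may pair libraries, although no label says what they mark.

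For the 4 single-loss libraries the file names and the labels disagree on which gene was lost, and the labels were kept. Members and lists were chosen with earlier results of these data known. Genes were named if they had the highest TPM (5 overall and 1 per window), were among the 8 furthest called in each direction of a tested comparison without overlap of libraries, were the 8 lowest or 4 highest in labelled *CIC* KO at 5 CPM or more without overlap, or stood on a list fixed by role. Of that list, *FLT1*, *ZIC2*, *ZIC5* and *EDNRB* were not members. Others named were chosen after their values were seen. Of the genes so named, 1 is not reported here. Promoter windows came from RefSeq (GRCh38.p14), with 181 members matched by symbol or gene ID.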

Additional observations from a re-analysis of the deposited data

Results flagged for a closer look

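Members whose change in the codeletion differed from that in labelled *ERF* KD, by the test of the difference itself (edgeR, adjusted p under 0.05), are listed for a closer look. In this comparison 13.6% of members were called, near the 12.9% of all autosomal genes, so that the number called does not set the chromosome apart. Of the members' calls, 8 held under every alternative. The values listed are log2 fold changes of the codeletion against labelled *ERF* KD. Among those lower were *WASF3* (-4.43), *PCDH9* (-3.64), *TMEM255B* (-1.74), *DCLK1* (-1.69), *SLITRK6* (-1.62), *TRPC4* (-1.62), *LHFPL6* (-1.61), *ABCC4* (-0.96), *DZIP1* (-0.82), *B3GLCT* (-0.79), *TSC22D1* (-0.75), *WDFY2* (-0.70), *RASA3* (-0.69), *NALCN* (-0.67), *ESD* (-0.50) and *RAP2A* (-0.48). Higher were *POLR1D* (0.47), *SPART* (0.55), *ARHGEF7* (0.61), *NDFIP2* (0.62), *ELF1* (0.63), *NUP58* (0.64), *RAB20* (1.40), *GRTP1* (1.79), *ATP8A2* (3.06), *SCEL* (4.08) and *RUBCNL* (7.19). The value of *RUBCNL* was set by 0 and 2 counts in labelled *ERF* KD and depends on the prior count.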

How the results depend on the processing

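Of 47 gene calls over the tested comparisons, 15 held under every alternative and none changed sign. They were *RUBCNL*, *SCEL*, *ATP8A2*, *WASF3*, *GRTP1* and *LHFPL6* in both comparisons, *LCP1* in labelled *ERF* KD against WT (where the 1 CPM minimum fixed its direction), and *PCDH9* and *TRPC4* in the codeletion against labelled *ERF* KD. DESeq2 and the replicate block kept all 47, no filter lost 2, only the groups compared lost 14 and limma lost 23. In labelled *ERF* KD against WT (9 higher, 10 lower), no filter gave 15 and 21 calls, the replicate block 14 and 22, DESeq2 17 lower and limma 5 higher. Leaving out 1 library gave 3 to 6 higher (3 without WT A) and 5 to 7 lower (5 without WT A). In the codeletion against labelled *ERF* KD (11 higher, 17 lower), DESeq2 gave 17 higher, no filter 19 higher and the replicate block 20 higher. Limma gave 5 higher and 7 lower there, only the groups compared 5 and 10, and leaving out 1 library 4 to 8 higher and 6 to 11 lower, the lowest of both without codeletion A. In the codeletion against WT (0 and 0), DESeq2 gave 3 higher and 4 lower, no filter 3 and 9, and the replicate block 1 and 3, while limma, only the groups compared and each library left out gave 0 and 0. Why these counts moved was not tested, except that leaving out a library leaves fewer samples.

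The shift in labelled *CIC* KO was -0.13 to -0.21 with 1 library left out, the smaller without WT A, and -0.17 to -0.19 under the other settings. In labelled *ERF* KD it was -0.09 to 0.02 with 1 library left out and -0.10 as the median over 3 parts of GC content, further from 0 than its replicate SD of 0.0634. The replicate block gave -0.19 and -0.05 for these. With 2 libraries in a group, an exact permutation test of 1 value cannot go below p = 0.333.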

Other observations

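Outside the protein-coding genes, 6 non-coding genes of chromosome 13 had a mean of at least 1 CPM (*LINC00346*, *MIPEPP3*, *AL137058.2*, *MRPS31P5*, *ANKRD20A19P* and *DLEU1*). Their median log2 fold change in labelled *CIC* KO against WT was -0.37, beside -0.12 over 411 autosomal non-coding genes. *LINC00346*, a long intergenic RNA, was 4.75 and 3.67 CPM in WT, 1.68 and 1.49 in labelled *ERF* KD, 2.79 and 2.16 in labelled *CIC* KO, and 3.51 and 3.5 in the codeletion. *DLEU1* was 12.8 and 13.2 CPM in WT and 9.25 and 15.9 in labelled *CIC* KO, where its replicates lay on either side of WT. In the other comparisons the median of the 6 was -0.18 (labelled *ERF* KD against WT, autosomal -0.21), -0.33 (codeletion against WT, autosomal -0.29) and 0.04 (codeletion against labelled *ERF* KD, autosomal -0.02).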
